A study of Mus musculus with 3 samples.

Results

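Bone morphogenetic proteins (BMPs) of the anorectal junction were followed here through 9 of the 31053 genes in the deposited table. They were chosen by symbol and comprise 4 ligands (Bmp2, Bmp4, Bmp5 and Bmp7), 2 secreted antagonists (Grem1 and Chrdl1) and 3 target genes (Id1, Id2 and Id3). All 9 were in the table and each had at least 1 count. In GENCODE M21 (GRCm38) they are protein-coding genes. The ligands lie at chr2:133552159-133562885 (Bmp2, plus strand), chr14:46383520-46390669 (Bmp4, minus), chr9:75775364-75900310 (Bmp5, plus) and chr2:172868012-172940321 (Bmp7, minus). The antagonists lie at chr2:113746164-113758646 (Grem1, minus) and chrX:143285674-143394262 (Chrdl1, minus). The targets lie at chr2:152736251-152737410 (Id1, plus), chr12:25093799-25097140 (Id2, minus) and chr4:136143497-136145755 (Id3, plus). Single cells were taken from C57Bl/6 mice, bought at 6 weeks of age, and represent distal colon together with anus. One library was made on each of 3 days, each from the pooled tissue of 5 mice, so a difference between days is a difference between single pooled libraries, and day, animals and library cannot be told apart. The day 0 mice were untreated. The day 7 and day 42 mice had received 3% dextran sodium sulfate (DSS), a polymer that injures the colonic epithelium, in their drinking water for 6 d. No replicate allows a test, and no p-value is given. Epithelium and stroma were dissociated with trypsin, and dying cells were depleted by Annexin V selection before the 10x 3' libraries were made.

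BMPs are secreted ligands of the TGF-beta superfamily that bind paired type I and type II receptor kinases. The receptors phosphorylate Smad1, Smad5 and Smad9, which join Smad4 and switch on target genes, the Id genes among the most direct of them. Id proteins lack a DNA-binding region and hold basic helix-loop-helix factors away from DNA. In the colon, BMP activity is known to be low at the crypt base, where mesenchymal antagonists such as gremlin 1 are made, and high toward the surface.

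The 3 libraries held 37080 cells, from 11037 to 14376 each, with 72258639 to 151886649 unique molecular identifiers (UMIs, each standing for 1 captured mRNA molecule). The median cell had 5708 to 6217.5 UMIs. Pairs of libraries shared 40 to 55 cell barcodes, at most 0.471% of a library. The deposited cell table gave 29 clusters and 14 cell type names, 13 of them with at least 50 cells. For 12 names with fixed marker lists, every marker was highest in its own cell type except Rgs5 for muscle-like cells and Kdr for endothelial cells. Levels are counts summed over the cells of a name, cluster and day, divided by all counts of those cells, in CPM (counts for every 1000000 counts). Brackets give exact 95% Poisson intervals, which cover counting error only. UMIs of different genes are not compared with each other, because capture at the 3' end differs between transcripts.

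RefSeq promoter windows are printed for the antagonist and the ligand pair that were read mainly from fibroblasts and that differed between days there. Entries were matched for 5 of the 9 genes, and the windows of Id2 and Id3 overlapped annotated untranslated sequence by over 30 bases and are not printed. The Bmp5 window ends on the first base of the GENCODE gene, so 1 of its bases is annotated as untranslated. Each run is the 250 bases before RefSeq's start of the gene on GRCm38.p6, written 5' to 3' on the gene's strand. Capitals mark matches to GGCGCC or GGAGCC, GC-rich letters searched for Smad1 and Smad5, and to GTCTG, the Smad box searched for Smad3 and Smad4, on either strand.
Grem1, chr2:113758649-113758898, minus strand: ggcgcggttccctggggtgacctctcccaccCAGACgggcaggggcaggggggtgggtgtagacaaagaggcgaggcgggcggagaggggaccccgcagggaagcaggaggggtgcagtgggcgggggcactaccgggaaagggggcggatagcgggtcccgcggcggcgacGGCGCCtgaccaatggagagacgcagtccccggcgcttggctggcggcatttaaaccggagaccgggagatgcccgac
Bmp4, chr14:46390670-46390919, minus strand: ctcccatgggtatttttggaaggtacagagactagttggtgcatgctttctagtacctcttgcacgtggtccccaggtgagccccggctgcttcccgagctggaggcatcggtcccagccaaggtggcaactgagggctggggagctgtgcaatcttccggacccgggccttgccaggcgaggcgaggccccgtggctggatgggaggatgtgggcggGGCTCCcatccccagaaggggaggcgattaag
Bmp5, chr9:75775115-75775364, plus strand: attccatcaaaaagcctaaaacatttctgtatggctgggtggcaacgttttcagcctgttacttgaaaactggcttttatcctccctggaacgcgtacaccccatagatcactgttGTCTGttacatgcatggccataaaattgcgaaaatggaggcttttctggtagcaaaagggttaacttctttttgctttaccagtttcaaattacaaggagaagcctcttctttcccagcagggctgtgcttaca
The Grem1 window was 72% G and C and held GGCGCC from position 173 and CAGAC, the reverse complement of GTCTG, from position 32. The Bmp4 window was 63.2% G and C, with GGCTCC, the reverse complement of GGAGCC, from position 219. The Bmp5 window was 42.8% G and C, with GTCTG from position 117. Among 32851 windows of the same length, 9.59% held GGCGCC, 26.0% held GGAGCC and 42.2% held GTCTG on either strand. These matches describe letters only and were not tested for binding.

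All 4 ligands had their highest level per UMI captured in fibroblasts, over the 3 libraries summed and in each library alone. Their share of all UMIs of a ligand was another matter: fibroblasts held 32.1%, 17.8% and 10.5% of the Bmp2 UMIs at days 0, 7 and 42, colonocytes 53.8%, 27.9% and 36.9%, and keratinocytes 9.30%, 51.5% and 50.4%. Bmp4, a ligand of mesenchymal cells in gut and skin, stood at 642 CPM (626–659) in fibroblasts and 295 (266–326) in muscle-like cells, followed by endothelial cells at 34.4 (28.3–41.3). The other names with at least 50 cells were at 6.48 CPM or below, and their neighbouring intervals met. These values are of the 3 libraries summed. At day 0 alone endothelial cells had 16.6 CPM (6.68–34.2), with an interval meeting that of keratinocytes at 14.7 (13.4–16.1). Bmp5, a ligand close to Bmp7 in sequence, had 363 CPM (351–376) in fibroblasts, 124 (106–145) in muscle-like cells and at most 2.64 elsewhere. Both were therefore highest in mesenchymal names. Over the summed libraries the order fibroblasts, then muscle-like cells, then all other names held without overlap of the intervals. A name pools its clusters, and keratinocyte cluster 9, described below, had more Bmp4 than keratinocytes as a whole.

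Bmp2, a ligand that gut epithelium also makes, had a wider spread of sources. Its level was 291 CPM (280–302) in fibroblasts, 95.7 (79.7–114) in muscle-like cells and 83.6 (81.3–86.0) in colonocytes. The intervals of muscle-like cells and colonocytes met, so their order is not set beyond counting error. Secretory colonocytes followed at 34.7 (29.7–40.3) and keratinocytes at 16.4 (15.9–16.9). Bmp7, a ligand of many epithelia, had 148 CPM (141–157) in fibroblasts, 25.8 (25.2–26.5) in keratinocytes and 22.1 (14.2–33.0) in T cells, and the last pair could not be ordered. Colonocytes had only 3.05 CPM of Bmp7 (2.62–3.54). Colonocytes thus stood near the top of the order for Bmp2 and near the bottom for Bmp7.

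The antagonists occupied separate mesenchymal names. Grem1, which encodes gremlin 1, a protein that binds BMP2, BMP4 and BMP7 outside the cell, was at 91.6 CPM (85.5–98.0) in fibroblasts and next at 7.02 (3.74–12.01) in macrophages, where its 13 UMIs at day 7 lay in a single cell. Chrdl1, a chordin-like antagonist, was at 58.2 CPM (45.8–72.8) in muscle-like cells and at 2.21 (1.35–3.41) in fibroblasts. T cells held a UMI of either gene in 0 of 458 cells, which allows up to 0.655% of cells with a UMI (3 counts of the total). That is no limit on cells expressing the genes, since the median T cell had 1888.5 UMIs. Of the Chrdl1 UMIs of the day 0 library 77.7% lay in muscle-like cells, and the day 7 and day 42 libraries had only 4 and 5 Chrdl1 UMIs in all, with 41 and 24 muscle-like cells.

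**Figure D1:**
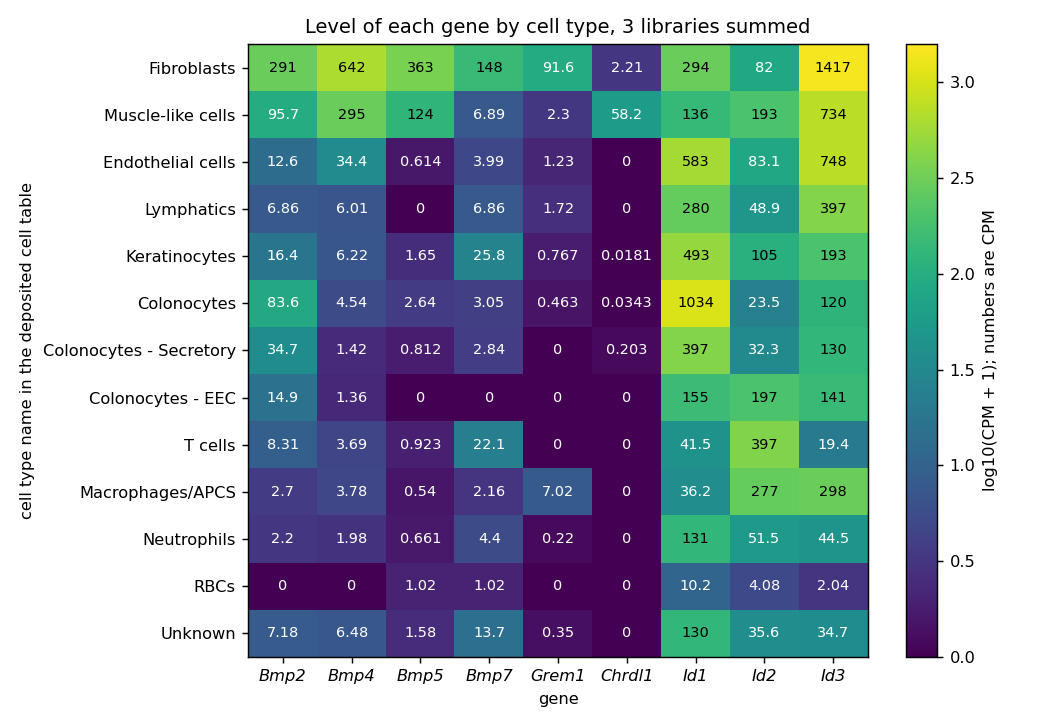
Heat map of the 9 genes (columns) by cell type name of the deposited cell table (rows, names with at least 50 cells), all 3 libraries summed; colour is log10(CPM + 1) and the printed numbers are CPM. The 4 ligands and Grem1 are brightest in fibroblasts, Chrdl1 in muscle-like cells, Id1 in colonocytes, Id2 in T cells and Id3 in fibroblasts.

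The Id genes did not share 1 order of cell types. Id1, a regulator expressed in many proliferating cells, was highest in colonocytes at 1034 CPM (1025–1042), then endothelial cells at 583 (557–610), keratinocytes at 493 (490–496) and secretory colonocytes at 397 (380–415). Fibroblasts came next at 294 (283–305), with an interval meeting that of lymphatic cells. Below colonocytes the order differed between libraries: at day 0 keratinocytes, at 199 CPM (194–204), stood below secretory colonocytes at 416 (395–438), endothelial cells at 387 (330–451), lymphatic cells at 377 (297–471) and fibroblasts at 344 (330–358). Id2, known for its part in innate and cytotoxic lymphocytes, was highest in T cells at 397 CPM (360–436), then macrophages at 277 (254–302). At day 7 alone the intervals of T cells, 353 (292–423), and macrophages, 285 (257–315), met. Enteroendocrine colonocytes at 197 (166–231) and muscle-like cells at 193 (170–218) came next with overlapping intervals. Colonocytes, highest for Id1, were next to last for Id2 at 23.5 CPM (22.3–24.8).

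Id3, a target that endothelial and mesenchymal cells express strongly, was highest in fibroblasts at 1417 CPM (1392–1442). Endothelial cells at 748 (719–779) and muscle-like cells at 734 (688–782) followed with overlapping intervals. Lymphatic cells had 397 (362–435) and macrophages 298 (274–324). The Id3 lead of fibroblasts was clear of other cells in the day 0 library only, which gave 10712 of their 12825 Id3 UMIs. At day 7 fibroblasts had 748 CPM (709–789) and endothelial cells 733 (699–767), and at day 42 they had 1086 (1009–1167) and 929 (834–1033), with intervals that met on both days. Colonocytes led the order for Id1 in each library. The highest cell type of all 9 genes was the same under each of the 5 alternatives run for it (a cell filter, other totals, the mean of CPM per cell, removal of each gene's 10 richest cells, and equal depth).

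Shares of cells with a UMI were compared after each cell was thinned to 1000 UMIs. Thinning kept 1797 fibroblasts and left out 177. Bmp4 was then seen in 46.5% of fibroblasts (77.2% unthinned, median 4220 UMIs) against 0.204% of neutrophils (0.305% unthinned, median 2172 UMIs), cells that should lack it. In thinned fibroblasts Bmp5 was seen in 25.9% (51.9% unthinned), Bmp2 in 17.5% (38.9%), Bmp7 in 11.5% (34.3%) and Grem1 in 4.396% (10.8%). The thinned neutrophils had these 4 genes in 0.136%, 0.204%, 0.341% and 0.0681% of cells, so each gene stood far above that level in fibroblasts. Before thinning, only 5 neutrophils but 1436 fibroblasts were of day 0. The neutrophil level is thus of the later libraries and gives no background for day 0. Keratinocytes (median 8075 UMIs) had Bmp5 in 0.167% of thinned cells, close to the neutrophil share, and Bmp4 in 0.765%. Id3 was seen in 58.7% of thinned fibroblasts (76.2% unthinned) against 1.53% of T cells (3.93% unthinned, median 1888.5 UMIs). Id1 was seen in 43.5% of colonocytes (74.0% unthinned, median 7372 UMIs) against 2.80% of T cells (6.99% unthinned). Thinned neutrophils had Id3 in 3.54% and Id1 in 9.40% of cells, above the T cell shares.

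UMIs of Bmp4 and Bmp5 were found in overlapping sets of fibroblasts. At day 0, 1170 of 1436 fibroblasts had a Bmp4 UMI and 802 had a Bmp5 UMI. Both were found in 755 cells, which is 64.5% of those with Bmp4 and 94.1% of those with Bmp5. Over all these fibroblasts 55.8% had Bmp5 and 81.5% had Bmp4, so much of the overlap is forced by these shares. Cells with a UMI are deeper than others, with medians of 4665 and 4935.5 UMIs against 4366 over all fibroblasts. Only 103 of the day 0 fibroblasts had a Grem1 UMI. In those 103 cells, Bmp2 stood at 65.1 CPM (45.6–90.1) against 286 (273–300) in the 1333 cells without one, with median depths of 4763 and 4322 UMIs. Bmp5 differed in the same direction, 170 CPM (137–208) against 434 (418–451), and so did Bmp7, 39.8 (24.9–60.2) against 147 (137–157). The Bmp4 intervals overlapped, at 687 CPM (620–760) against 709 (687–730).

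At day 7 the lower ligand levels of Grem1-bearing cells were not seen. The 88 fibroblasts with a Grem1 UMI had 387 CPM of Bmp2 (341–436) and the other 228 had 298 (267–331). Bmp5 was 184 CPM (153–219) in the first set and 204 (178–231) in the second, and Bmp7 was 201 (169–238) and 185 (161–212). Bmp2 was higher in the Grem1-bearing cells, and the intervals of Bmp5 and Bmp7 overlapped. At day 42 only 22 fibroblasts had a Grem1 UMI, and they held 1 Bmp2 UMI, 14.3 CPM (0.361–79.5), against 457 CPM (405–513) in the other 200. Bmp4 and Bmp5 were also lower in these 22 cells, at 271 CPM (163–423) against 488 (434–546) and at 171 (88.5–299) against 362 (316–413), while the Bmp7 intervals met. Other genes also differed between the sets, not all on the same days. Acta2, a contractile gene, was at 61.5 CPM with a Grem1 UMI against 288 without at day 0 and at 171 against 928 at day 42, but at 266 (229–308) against 203 (177–230) at day 7. Pdgfra, a fibroblast receptor gene, was at 300.1 against 530.2 at day 0 and 199.8 against 510.4 at day 42, but at 519 (466–576) against 500.2 (460.1–543) at day 7. Col1a1, a collagen gene, was lower with a Grem1 UMI at days 0 and 7, at 1737 CPM against 2455 and at 2383 against 2978, and its intervals met at day 42. Dpt was lower at days 0 and 7, at 1320 against 1561 and at 735 against 1071, with intervals that met at day 42. Fstl1 was higher at day 0, at 1139 against 904, with intervals that met later, and Id3 was lower at day 0, at 1233 against 1676, and at day 7, at 532 against 876. Id1 was lower at day 0, at 257 (216–303) against 352 (337–367). At day 7 Id1 was higher, at 110 (86.7–138) against 68.7 (54.4–85.6), and its intervals met at day 42. The Grem1-bearing cells thus differed from the others in more than the ligands, on day 7 too, and the part of this in the ligand values was not tested. Cells were sorted here by a measured gene within 1 library, so these values are a description.

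Between days, most of the comparable members differed by over 2-fold in fibroblasts at day 7, Grem1 upward and Bmp5 and the 3 Id genes downward. The comparison used log2((CPM + 10)/(CPM + 10)), required 5 CPM or more on one of the days compared, and a value of at least 1 in size was called past 2-fold. At day 7 against day 0, 8 genes could be compared, and 5 were past 2-fold, 1 higher and 4 lower. Of all 11188 genes compared in fibroblasts, 4.9% were past 2-fold, 2.65% higher and 2.25% lower. The median log2 ratio was -0.80 over the 8 genes and -0.05 over all genes compared. The libraries held 1436, 316 and 222 fibroblasts at days 0, 7 and 42.

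Grem1 was the member that was higher. Its fibroblast level was 29.7 CPM at day 0 (25.7–34.2), 314 at day 7 (289–341) and then 87.6 (66.8–113), and no intervals overlapped. The day 7 library stood above the other pair, with a log2 ratio to day 0 of 3.03. Grem1 counts were concentrated in few cells: the 10 richest cells held 27.3%, 44.9% and 76.7% of its UMIs at days 0, 7 and 42. Without those 10 cells of each library, the log2 ratio was 2.64 at day 7 and -0.01 at day 42, so the day 42 difference of 1.30 was not seen without those cells. Fibroblasts with a Grem1 UMI numbered 103, 88 and 22, so removing 10 takes a larger part of the later libraries. The removal therefore cannot decide whether the day 42 difference rests on few cells. Thinned to 1000 UMIs, Grem1 was seen in 2.44% of fibroblasts at day 0, 12.7% at day 7 and 5.42% in the day 42 library.

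All 3 Id genes were lower in day 7 fibroblasts. Id1 was at 344 CPM at day 0 (330–358), 84.2 at day 7 (71.4–98.6) and 376 (332–425) in the day 42 library. The day 0 and day 42 intervals overlapped and day 7 lay apart below them, with a log2 ratio of -1.91 to day 0. Neutrophils had 119 CPM of Id1 (109–130) at day 7, above the fibroblasts of that library. Id2 was at 95.5 CPM (88.1–103), 38.3 (29.8–48.3) and 70.0 (51.6–92.9), with a log2 ratio of -1.13 at day 7. Id3 was at 1639 CPM (1608–1670), 748 (709–789) and 1086 (1009–1167), with a log2 ratio of -1.12 at day 7. For Id3 the day 42 level lay between the other days without overlap. Thinned to 1000 UMIs the Id3 log2 ratio at day 7 was -0.996, just short of 2-fold.

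The fibroblast ligands moved in separate directions. Bmp5 was at 412 CPM at day 0 (397–428), 196 at day 7 (176–218) and 343 (300–390) in the day 42 library, with a log2 ratio of -1.03 at day 7 that was short of 2-fold under 3 of 8 alternatives. Bmp4 was at 707 CPM (687–728), 477 (446–510) and 466 (416–520), lower on both later days by less than 2-fold. Bmp2 was at 267 CPM (255–280), 331 (305–358) and 412 (365–462). The 3 days did not overlap for Bmp2, but its 10 richest cells held 10.5%, 36.9% and 38.7% of its UMIs. Without them the log2 ratio to day 0 was -0.10 at day 7 and 0.13 at day 42, against 0.30 and 0.60 with all cells. Bmp7 was at 138 CPM (129–147), 191 (172–212) and 136 (110–166), highest at day 7 and overlapping between days 0 and 42. Its 10 richest cells held 6.88%, 27.1% and 32.3% of its UMIs, and without them the log2 ratio to day 0 was 0.22 at day 7 and -0.34 at day 42, against 0.45 and -0.02 with all cells. For Bmp2 and Bmp7 alike, 10 cells are a larger part of the 316 and 222 later fibroblasts than of the 1436 at day 0. Removing them thus lowers the later values more. Chrdl1 had 16, 0 and 4 fibroblast UMIs, too few to order the days.

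**Figure D2:**
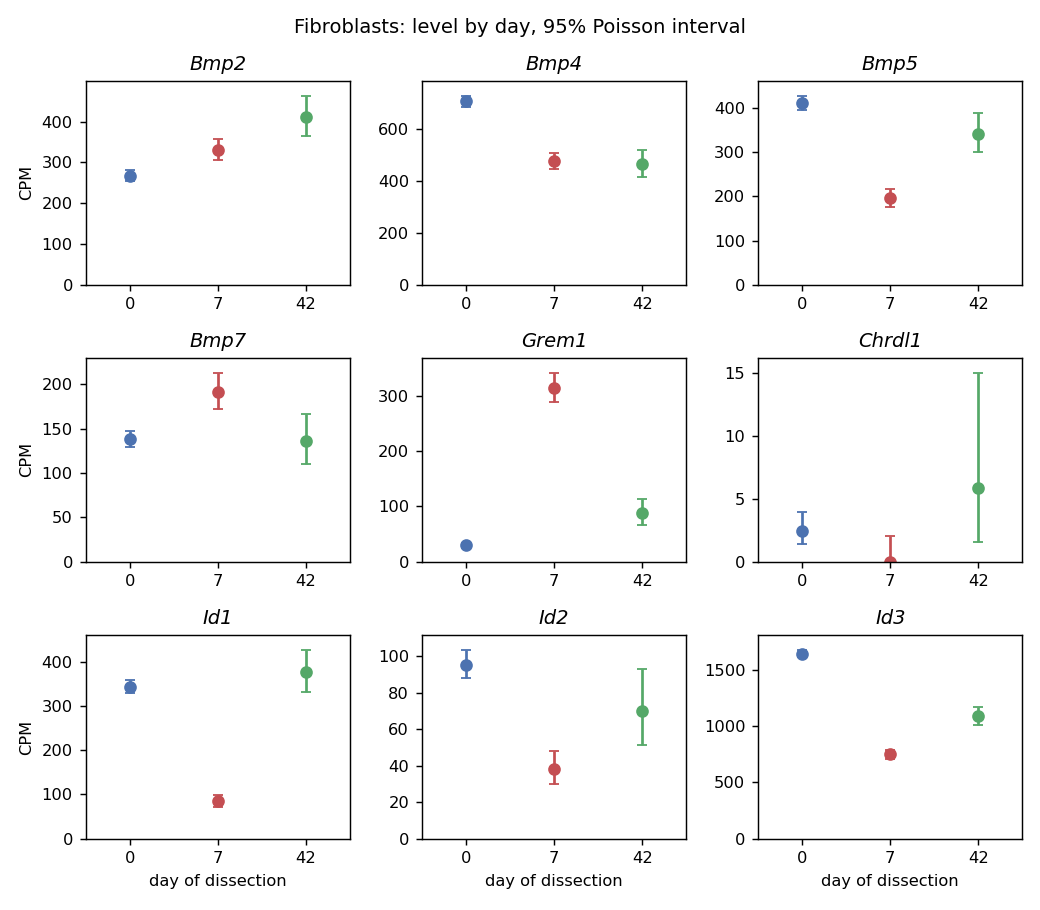
Fibroblast level of each of the 9 genes (vertical axis, CPM, from 0) on days 0, 7 and 42 (horizontal axis); points are 1 pooled library each and bars are 95% Poisson intervals. Grem1 is highest at day 7 while Bmp5, Id1, Id2 and Id3 are lowest there.

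At day 42 against day 0, 1 of 9 comparable genes was past 2-fold, Grem1, where 2.63% of all genes were. At day 42 against day 7, 2 of 9 were, Id1 higher with a log2 ratio of 2.04 and Grem1 lower with -1.73, where 4.04% of all genes were. The Grem1 value was -0.75 in thinned cells. Other measures of the fibroblast class moved with the days. The summed CPM of 14 dissociation stress genes was 13434, 6267 and 4353 at days 0, 7 and 42, with 7 of the 14 past 2-fold lower at day 7 and 12 at day 42. The summed CPM of 6 neutrophil markers was 51.4, 3107 and 553, with 3, 6 and 5 markers seen, and that of 8 keratinocyte markers was 1391, 2114 and 4616, with all 8 seen on each day. The 7 fibroblast markers summed to 29290, 28591 and 25927. The part of these measures in the fibroblast differences was not tested.

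Other genes of the pathway also differed in fibroblasts at day 7, where 4.9% of all genes were past 2-fold. Of the secreted antagonists, Fst, Sostdc1 and Twsg1 are described, and no count over that list is given. Fst, encoding follistatin, which binds activins and some BMPs, had 13.2 CPM, then 138 and 70.0 on the later days, a log2 ratio of 2.67 at day 7 and the largest of its list. Sostdc1, a sclerostin-like antagonist, was also higher at day 7, with 4.59, 33.3 and 7.30 CPM on the 3 days. Over the 3 libraries summed both genes were highest in keratinocytes. Fst was at 94.7 CPM there against 42.6 in fibroblasts, and Sostdc1 at 55.5 against 10.6. Whether free RNA carried part of the fibroblast values was not tested. Twsg1, which encodes the chordin partner twisted gastrulation, was lower, with 410, 149 and 299 CPM. At day 7 the Fst level was 23.5 CPM (13.4–38.2) in fibroblasts with a Grem1 UMI and 205 (180–233) in those without, while the intervals of both sets met at days 0 and 42.

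None of 9 comparable receptors and co-receptors, 4 transducers or 5 intracellular inhibitors was past 2-fold in day 7 fibroblasts. Smad6, an inhibitory Smad that BMP signalling induces, had 46.7, 19.1 and 13.1 CPM on the 3 days, log2 ratios of -0.96 and -1.29. Of 6 comparable other targets and Id partners, 2 were past 2-fold lower at day 7. Atoh8, a transcription factor gene that responds to BMPs, had 38.1, 4.92 and 36.5 CPM, and Id4 had 28.2, 6.01 and 17.5. Atoh8 followed the days as Id1 did, low at day 7 and near its day 0 level at day 42. Over all genes in fibroblasts 4.9% were past 2-fold at day 7, with 2.25% lower, and 2.63% were at day 42. Counts of 0 over so few genes are near that share, and nothing particular to a list is read from these counts.

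In keratinocytes, the squamous class, Id1 was the member past 2-fold. It was at 199 CPM at day 0 (194–204), 497 at day 7 (493–501) and 658 (651–664) in the day 42 library, without overlap and with both DSS libraries higher. Its log2 ratio to day 0 was 1.28 at day 7 and 1.68 at day 42. Of 6 comparable members 1 was past 2-fold in each comparison, where 2.12% of all genes were at day 7 and 4.3% at day 42. The members' median was 0.09 at day 7 and 0.51 at day 42, against -0.03 and -0.05 over all genes compared. Between day 42 and day 7 none of 5 comparable members was past 2-fold, against 3.16% of all genes, and the Id1 log2 ratio was 0.40. These libraries had 3316, 9035 and 7970 keratinocytes. In the same cells the 6 neutrophil markers, all seen on each day, summed to 24.1, 1598 and 198 CPM, and the stress list to 2398, 2425 and 3687. The part of these measures in the Id1 levels was not tested.

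Id3 ran beside Id1 in keratinocytes at just under 2-fold. It was at 103 CPM at day 0 (99.6–106), 212 at day 7 (210–215) and 204 (200–208) in the day 42 library, log2 ratios of 0.98 and 0.92. Scaling by median-of-ratios size factors, which shifted the median of all genes by 0.10 at day 7 and 0.14 at day 42, put Id3 past 2-fold at both, with 1.11 and 1.11. Id2 was at 82.5 CPM (79.5–85.6), 100 (98.8–102) and 130 (127–133), higher on each later day by less than 2-fold. Of the squamous ligands, Bmp7 was lower on both later days and Bmp2 was higher at day 42. Bmp7 was at 31.5 CPM (29.7–33.5), 25.8 (24.9–26.7) and 22.5 (21.3–23.7), and Bmp2 was at 14.9 (13.6–16.3), 13.6 (13.01–14.3) and 23.3 (22.1–24.6). Bmp4 was at 14.7, 4.93 and 4.09 CPM while the 7 fibroblast markers, all seen on each day, summed to 127, 35.8 and 39.3 CPM in the same keratinocytes. Whether free RNA carried that Bmp4 was not tested.

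The makeup of the keratinocyte class also differed between days. Clusters 1, 3, 5 and 12 had the highest Id1 levels of the 9 clusters at days 7 and 42. Since a class level weights cells by their UMIs, the share of class UMIs is given with the share of cells. Cluster 3 had 11.3%, 43.5% and 16.5% of the UMIs at days 0, 7 and 42 and 8.11%, 21.9% and 12.2% of the cells. Cluster 1 had 12.01%, 5.24% and 35.4% of the UMIs and 13.4%, 6.23% and 38.2% of the cells. Cluster 5 had 3.93%, 2.68% and 32.0% of the UMIs and 2.62%, 1.79% and 27.0% of the cells. Cluster 12 had 1.54%, 18.5% and 1.91% of the cells but 0.464%, 2.99% and 0.359% of the UMIs, and without it the Id1 log2 ratio was 1.27 at day 7 and 1.68 at day 42. With each of 9 clusters given equal weight, the log2 ratio of Id1 was 0.60 at day 7 and 0.75 at day 42, and no member was past 2-fold. At equal depth of 1000 UMIs per cell, the Id1 log2 ratio was 0.94 at day 7 and 1.58 at day 42. The direction was the same in each of the 10 alternatives run for Id1 in keratinocytes.

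Within clusters the sign of the Id1 difference was mixed. In cluster 3 Id1 was at 388 CPM at day 0 (368–408), 873 at day 7 (865–881) and 634 (618–650) in the day 42 library, so the day 7 library stood highest. In cluster 1 it was at 256 (241–272), 379 (364–394) and 714 (702–725), so day 42 stood highest. In cluster 5 it was at 453 (418–491), 857 (827–889) and 866 (852–879), with both DSS libraries above day 0 and overlapping each other. Cluster 12 had 241 (171–331), 596 (572–621) and 723 (612–848), from 51, 1668 and 152 cells. In cluster 13 the order was the other way, 279 CPM (258–301), 139 (133–145) and 182 (148–221). Cluster 8 was also lower at day 7, at 144 (135–154), 84.9 (79.0–91.0) and 128 (110–148). Clusters 4, 9 and 17 had log2 ratios between -0.06 and 0.31 on the later days.

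**Figure D3:**
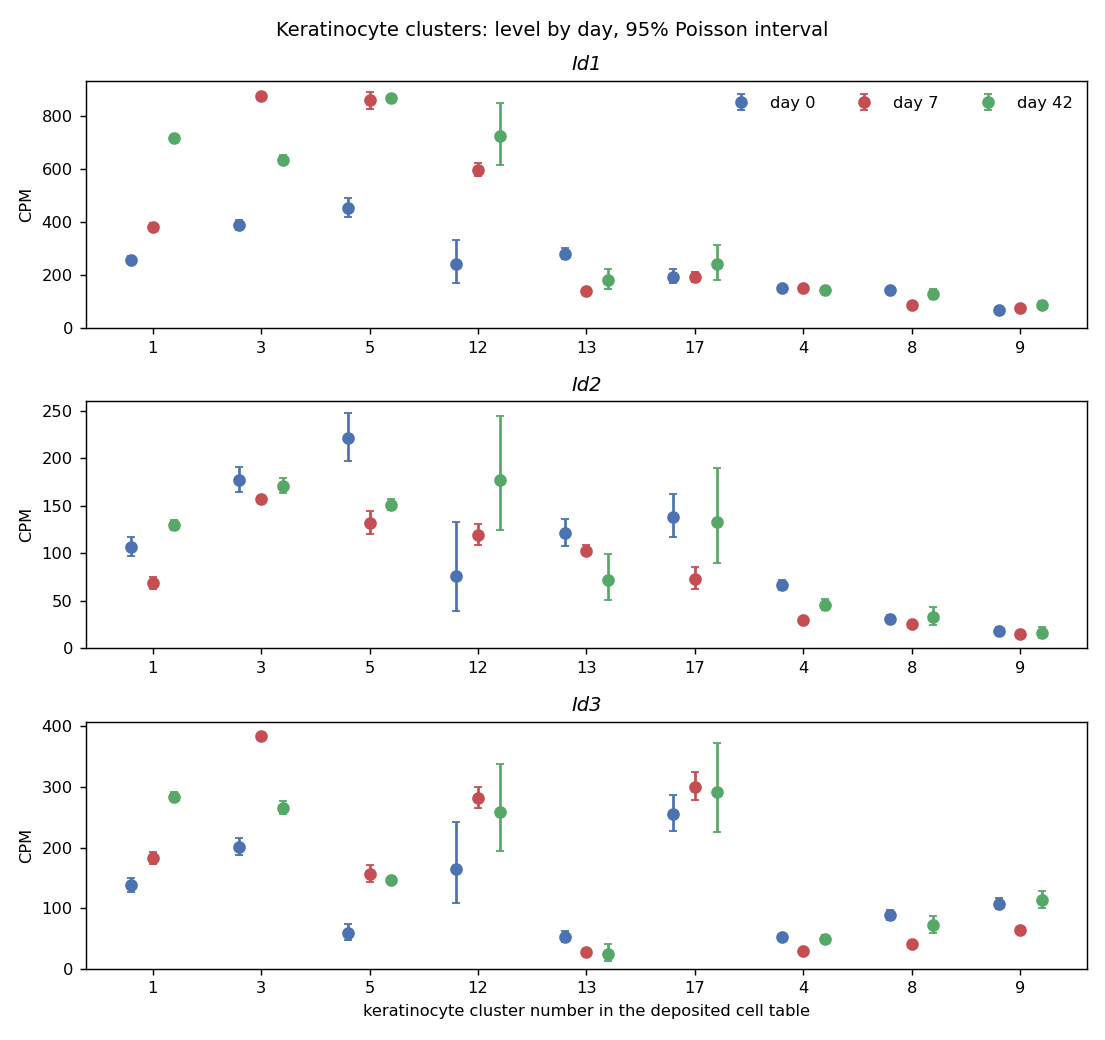
Levels of Id1, Id2 and Id3 (vertical axes, CPM, from 0) in the 9 keratinocyte clusters with at least 50 cells in each library (horizontal axis, cluster number), with 1 point per pooled library (day 0 blue, day 7 red, day 42 green) and 95% Poisson intervals. Id1 is above day 0 in clusters 1, 3, 5 and 12 on both later days and below it in cluster 13.

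Id2 differed from Id1 in direction in several of these clusters, while Id3 often had the same order of days as Id1. Id3 in cluster 3 was at 201 CPM (187–216), 383 (378–389) and 266 (256–276), the same order of days as Id1. In clusters 4, 8 and 9 Id3 was lowest at day 7, for example 88.5 CPM (81.2–96.3), 41.5 (37.4–45.8) and 71.8 (58.5–87.1) in cluster 8. Id2, in contrast to the class as a whole, was lower at day 7 than at day 0 in clusters 1, 3, 4, 5 and 17 with intervals apart, although Id1 was higher in clusters 1, 3 and 5. For example, Id2 was at 107 CPM (97.0–117), 68.3 (62.2–74.8) and 130 (125–135) in cluster 1. The dissociation stress list was above day 0 on both later days in clusters 1, 3, 5 and 12, as Id1 was. It summed to 1329, 2447 and 4305 CPM in cluster 1, 1520, 2439 and 3236 in cluster 3, 3323, 3482 and 4160 in cluster 5, and 1085, 2330 and 2236 in cluster 12. In clusters 13 and 8, where Id1 was below day 0 on both later days with an interval that met that of day 0 in cluster 8 at day 42, the list was also below, with 5484, 3540 and 2536 CPM and with 3423, 2599 and 2494. In clusters 4, 9 and 17, where Id1 differed less, the list had 1351, 1596 and 1376 CPM, then 3126, 1421 and 2116, then 2218, 5181 and 3206. The part of the stress list in the Id1 levels was not tested.

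The squamous clusters also divided the ligands and the antagonist. Bmp7 was highest in cluster 8 among clusters with at least 50 cells, at 66.6 CPM (60.3–73.4), 74.4 (68.9–80.1) and 65.4 (52.8–80.1), with overlapping days. Bmp4 was highest among these clusters in cluster 9, at 45.3 CPM (39.6–51.5), 26.4 (23.7–29.4) and 42.7 (34.5–52.3). That cluster held 231 of the 500 keratinocyte Bmp4 UMIs at day 0, 337 of 633 at day 7 and 93 of 238 at day 42. Grem1, otherwise a fibroblast gene, was at 60.5 CPM (46.8–77.0), 24.4 (18.3–31.9) and 26.6 (9.75–57.8) in cluster 17, which held 66 of the 74 keratinocyte Grem1 UMIs at day 0. Cluster 17 had 162, 236 and 63 cells, and its Grem1 level at day 0 was above that of day 0 fibroblasts, 29.7 CPM.

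Among the other pathway genes in keratinocytes, Fst was at 20.6, 113 and 96.9 CPM at days 0, 7 and 42, log2 ratios of 2.01 and 1.80. It was the 1 of 6 comparable antagonists past 2-fold higher on either later day, and Nbl1 was past 2-fold lower at day 42, from 25.9 to 6.68 CPM. Sostdc1 had 37.0, 79.1 and 14.1 CPM. Bambi, a decoy receptor that BMP signalling induces, was at 3.79, 10.2 and 21.1 CPM, a log2 ratio of 1.17 at day 42 and 1 of 4 comparable intracellular inhibitors. Of 6 receptors and 3 transducers compared, 0 were past 2-fold on either day. Over all genes 2.12% were past 2-fold at day 7 and 4.3% at day 42. With 3 to 6 genes compared per list, 1 gene more or less moves a list far from that share, so nothing particular to a list is read from these counts. Fst was thus higher at day 7 in both fibroblasts and keratinocytes.

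In the columnar class, which pools absorptive, secretory and enteroendocrine colonocytes, Id3 was the member past 2-fold and was lower. It was at 139 CPM at day 0 (135–142), 49.2 at day 7 (44.7–54.0) and 109 (103–115) in the day 42 library, without overlap and lowest at day 7. Its log2 ratio to day 0 was -1.33 at day 7 and -0.32 at day 42, and day 42 relative to day 7 gave 1.01. Of 6 comparable members 1 was past 2-fold at day 7 against day 0, where 5.4% of all genes were. For day 42 relative to day 0 the count was none of 5 where 1.53% of all genes were. For day 42 relative to day 7 it was 1 of 5 where 2.39% were. The members' median at day 7 was -0.35, against -0.15 over all genes compared. The day 7 difference was under 2-fold when each cell had equal weight or equal depth, with log2 ratios of -0.58 and -0.50. The value of day 42 relative to day 7 ranged from 0.25 to 1.75 over its alternatives and was under 2-fold in 5 of 10.

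Cluster 22, with 279 cells at day 7 and 4 and 5 on the other days, had 218 CPM of Id3 (187–254). Without it the columnar log2 ratio of Id3 at day 7 was -1.79, so the difference was larger without it. Within cluster 2, colonocytes with 1936, 703 and 1072 cells, Id3 was at 131 CPM (124–137), 27.2 (23.4–31.4) and 115 (106–125). Id2 was at 31.9 CPM (28.8–35.1), 10.1 (7.88–12.8) and 24.7 (20.6–29.4) in the same cluster. Both genes were past 2-fold lower at day 7, with log2 ratios of -1.92 and -1.06, where 3.4% of all genes in cluster 2 were past 2-fold. Mitochondrial genes took 25.4%, 13.8% and 15.2% of the UMIs of cluster 2 on the 3 days, and its median cell had 4419.5, 7194 and 3712 UMIs. The part of these measures in the cluster 2 values was not tested. In the whole columnar class, the log2 ratio of Id3 at day 7 was -1.38 with the filter that left out cells over 20% mitochondrial UMIs and shallow cells, against -1.33 without it. Id1 in cluster 2 was at 838 CPM (822–854), 760 (739–781) and 875 (849–901), also lowest at day 7 but within 2-fold.

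Cluster 7, the other large colonocyte cluster, had 1809, 33 and 412 cells. Its Bmp2 level was 32.5 CPM (30.4–34.7) at day 0 and 30.4 (25.6–35.8) at day 42, overlapping, against 161 (154–168), 131 (123–140) and 165 (154–176) in cluster 2. Bmp2 was therefore higher in cluster 2 than in cluster 7 at days 0 and 42. Id1 ran the other way at day 0, at 1274 CPM (1260–1287) in cluster 7 and 838 in cluster 2. At day 42 cluster 7 had 850 CPM of Id1 (824–876) and cluster 2 had 875, with overlapping intervals. The dissociation stress list in cluster 7 summed to 13779 CPM at day 0 and 9934 at day 42, and its part in the lower Id1 was not tested. The columnar class level of Bmp2, 69.9 CPM (67.5–72.4), 108 (101–115) and 91.9 (86.4–97.7), was highest at day 7, when cluster 2 held most of the class. Cluster 2 had 29.03%, 76.4% and 46.0% of the class UMIs, which weight that level, and 45.0%, 66.2% and 63.8% of the cells. Within cluster 2 the day 7 level was the lowest.

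**Figure D4:**
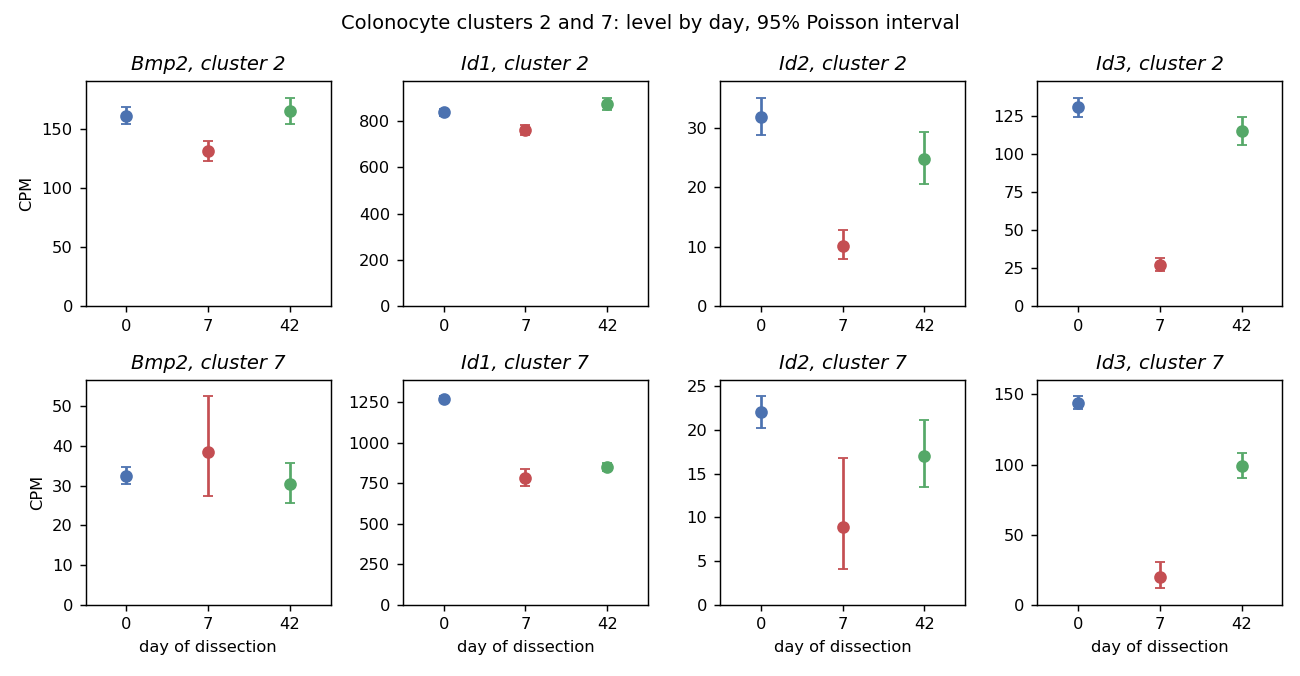
Levels of Bmp2, Id1, Id2 and Id3 (vertical axes, CPM, from 0) in colonocyte clusters 2 (top) and 7 (bottom) on days 0, 7 and 42 (horizontal axis), 1 pooled library per point with 95% Poisson intervals; cluster 7 had 33 cells at day 7. Id2 and Id3 are lowest at day 7 in both clusters, and Bmp2 is higher in cluster 2.

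Bmp4 in the columnar class was at 5.79, 1.80 and 0.268 CPM while the 7 fibroblast markers summed to 198, 86.0 and 12.2 CPM there, with all 7 seen on each day. The 6 neutrophil markers summed to 2.60, 2292 and 111 CPM, with 5, 6 and 6 seen, and the dissociation stress list to 12903, 8636 and 10469. The part of these measures in the columnar values was not tested. Of the other pathway genes in the columnar class, 0 were past 2-fold against day 0 on either later day. The genes compared were few, with 2 ligands, 7 receptors, 3 transducers, 5 inhibitors, 5 antagonists and 3 other targets at day 7, and 1, 6, 3, 5, 4 and 4 at day 42. Over all genes 5.4% were past 2-fold at day 7 and 1.53% at day 42, so a count of 0 over so few genes is near that share.

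Vessel cells carried Id1 and Id3 on every day. Endothelial Id3 was at 678 CPM (602–762), 733 (699–767) and 929 (834–1033), and endothelial Id1 was at 387 (330–451), 612 (582–644) and 610 (533–694), from 100, 312 and 122 cells. Day 0 was the lowest for Id1, and the later days overlapped. In the same endothelial cells the 8 keratinocyte markers, all seen on each day, summed to 778, 1920 and 4163 CPM, the 6 neutrophil markers to 0, 2908 and 255, and the stress list to 23924, 7618 and 11187. Lymphatic Id3 was at 181 CPM (128–250), 413 (369–460) and 582 (474–707), from 63, 190 and 84 cells, without overlap and lowest at day 0. The stress list of these cells summed to 2771, 6031 and 3923 CPM, and the 6 neutrophil markers to 39.2, 2846 and 346, with 2, 6 and 6 seen. The part of these measures in the vessel values was not tested. T cell Id2 was at 456 CPM (401–516), 353 (292–423) and 306 (234–393), from 219, 118 and 121 cells, and only days 0 and 42 had intervals apart.

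Muscle-like cells could be described at day 0 only, with 296 cells. They had 307 CPM of Bmp4 (275–342), 134 of Bmp5 (113–157), 89.1 of Bmp2 (72.2–109), 67.8 of Chrdl1 (53.1–85.2) and 730 of Id3 (680–783). Bmp7 was near absent there at 2.79 CPM (0.574–8.14), unlike fibroblasts. As a group these cells thus held ligands, an antagonist and a target. Whether single cells held them together was not tested.

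The share of a gene's UMIs held by a cell type depends on how many of its cells were captured as well as on its level. Fibroblasts were 13.01%, 2.20% and 1.90% of cells at days 0, 7 and 42, and keratinocytes were 30.04%, 62.8% and 68.3%. Fibroblasts held 80.4%, 52.2% and 53.2% of the Bmp4 UMIs and 86.9%, 60.03% and 81.0% of the Bmp5 UMIs. Keratinocytes held 50.1%, 87.4% and 89.7% of the Bmp7 UMIs and 12.03%, 87.1% and 79.4% of the Id1 UMIs, while colonocytes held 80.2%, 8.97% and 17.8% of Id1. Fibroblasts held 49.7%, 4.26% and 5.18% of the Id3 UMIs. For Grem1 the fibroblasts held 66.9%, 83.9% and 80.0% of the UMIs, where the intervals of day 0 (61.2–72.3) and day 42 (69.2–88.4) overlapped. Their share rose for Grem1 from day 0 to day 7 and for Bmp5 from day 7 to day 42, although their part of the cells fell. The day 42 library had 75 Grem1 UMIs in all, and 10 cells held 76.7% of those in fibroblasts. Shares of captured cells need not follow the tissue, and the cell table gives no count of the tissue itself.

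**Figure D5:**
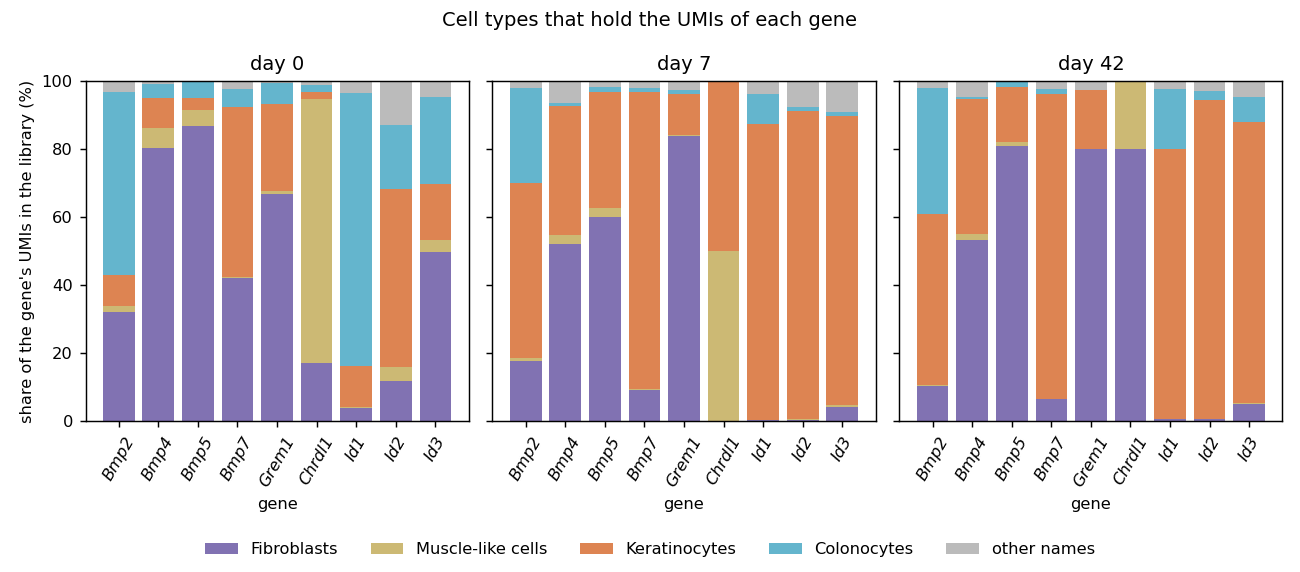
Share of each gene's UMIs (vertical axis, percent of the gene's UMIs in the library) by cell type name, in the day 0, day 7 and day 42 libraries; each bar is 1 of the 9 genes and colours are cell type names. Fibroblasts hold most Bmp4, Bmp5 and Grem1 UMIs on each day, and the Id1 bar passes from colonocytes at day 0 to keratinocytes at days 7 and 42.

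The genes whose pattern was most like each member's were found by Pearson r of log2(CPM + 10) over 60 clusters by day with at least 50 cells, among 5354 genes with at least 100 CPM in one of them. The points share 3 libraries, so r is a description. For Bmp4 they were Ddr2 (r = 0.91), C1s1 (0.91) and Bmp5 (0.90), and for Bmp5 they were Prrx2 (0.99), Adamts2 (0.98) and Ms4a4d (0.98). For Bmp2 they were Lpar1 (0.81), Pde5a (0.78) and Hpse (0.77), and for Bmp7 they were Gpc1 (0.86), Sfrp1 (0.82) and Matn2 (0.82). Grem1 was nearest to Cpxm1 (0.92), Col27a1 (0.88) and Mrc2 (0.88). Chrdl1 was nearest to Myocd (0.99), Lmod1 (0.99) and Itga8 (0.98), genes known from smooth muscle. Of muscle-like cells only the day 0 point, with 296 cells, entered. The Chrdl1 values rest mainly on that point, which any gene particular to those cells would match. Id1 was nearest to Cttn (0.80), Hbegf (0.80) and Shroom3 (0.78), Id2 to S100a4 (0.69), Lmo4 (0.69) and Furin (0.68), and Id3 to Itgb1 (0.85), Mmp14 (0.84) and Ctsl (0.84). The nearest genes of the Id genes had lower r than those of Bmp4 and Bmp5, whose r rests mainly on few mesenchymal points. No Id gene was among the nearest of another.

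Outside the 9 members, pathway genes differed by cell type, each compared with itself only. Bmp1, which encodes a protease and not a BMP in the strict sense, was highest in fibroblasts at 122 CPM (114–129). Fstl1, of the antagonist list, had 904 CPM (884–923) in fibroblasts and 897 in muscle-like cells, which is inside that interval, so the order of these cell types is not set. Eng, an endothelial co-receptor, was highest in endothelial cells at 754 CPM (725–785), where Bmpr2, the type II BMP receptor, also had its highest level, 386 (365–408). Smad1, a signal transducer, was highest in lymphatic cells at 437 CPM (400–476). Tcf4, a partner of Id proteins, had 923 CPM (869–980) there and 895 in endothelial cells, inside that interval, with 847 in fibroblasts. Smad7, an inhibitory Smad, was highest in T cells at 220 CPM (193–249).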

How the data were processed

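Counts were taken from the deposited matrix of whole-number UMI counts per gene and cell, made by the authors with Cell Ranger 3.0.2 on mm10, per the submitters' processing notes. The deposited cell table gives each cell's day, cluster and cell type name, and a size factor, the ratio of the cell's total to the geometric mean of totals, used to check the cell order (unit other for the names, per the file headers). Counts were summed per name, cluster and day with Python 3.11.15, numpy 2.4.6, pandas 2.3.3 and scipy 1.17.1 and divided by the cells' total. Squamous means keratinocytes, columnar means colonocytes with their secretory and enteroendocrine names, and fibroblasts are cluster 10. Ratios carry a pseudocount of 10 CPM and were tested on simulated data. No cell filter and no doublet caller was applied to the main values, and the effect of leaving out the deepest 5% of cells is given as an alternative. Named genes are the 9 members, pathway genes from fixed lists that lead their list in level or ratio, and the 3 most alike genes of each member. Other named pathway genes, and clusters, were chosen after their values were seen. The members and all lists were chosen with earlier results of these data known. Of 31053 identifiers 31011 were in GENCODE M21. A result for a listed antagonist is not reported here.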

Additional observations from a re-analysis of the deposited data

Results flagged for a closer look

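Several differences between days had opposite signs in separate cell classes, and none of these contrasts between classes was tested, because each class has 1 pooled library per day. At day 7 against day 0, Id1 had a log2 ratio of 1.28 in the squamous class, -0.50 in the columnar class and -1.91 in fibroblasts, which puts the squamous value above the columnar one by 1.78 and above the fibroblast one by 3.19. Id2 had 0.26 in the squamous class and -1.13 in fibroblasts, a difference of 1.38. That squamous sign is of the class as a whole: within keratinocyte clusters 1, 3, 4, 5 and 17 Id2 was lower at day 7 than at day 0 with intervals apart, while cluster 3 went from 11.3% to 43.5% of the class UMIs. Id3 had 0.98 in the squamous class, -1.33 in the columnar class and -1.12 in fibroblasts, differences of 2.31 and 2.10. At day 42 against day 0, Id1 had 1.68 in the squamous class and -0.39 in the columnar class, a difference of 2.07. The Id1 signs, too, are of the classes as a whole. With equal cluster weight the squamous values were 0.60 at day 7 and 0.75 at day 42, with mixed signs within clusters. Colonocyte cluster 7 went from 61.7% of the columnar UMIs at day 0 to 11.4% at day 7 and 42.7% at day 42. Within cluster 2 Id1 was lower than at day 0 on day 7 but not on day 42. Within cluster 7 Id1 was lower at day 42. The part of makeup in the Id1 differences was not tested. At day 42 against day 7, Id3 had -0.06 in the squamous class and 1.01 in the columnar class, and the squamous value minus the columnar one was -1.07. All comparisons against day 0 share the day 0 library.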

How the results depend on the processing

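No paired analysis was possible because each day has 1 library and the labels give no replicate numbers. Across 11 alternatives, 504 of 538 log2 ratios of the members between days kept their sign, and of 104 values for the 12 ratios past 2-fold, 103 kept the sign and 88 stayed past 2-fold. The exception in sign was Grem1 in fibroblasts at day 42 against day 0, -0.0088 without its 10 richest cells, where Id2 took its place as the 1 member past 2-fold. That removal takes a larger part of the smaller day 42 library. Counts of members past 2-fold moved as follows, and the cause was not tested. In the squamous class at day 7 the count of 1 became 2 with size factors or without the 10 richest cells, 3 with a pseudocount of 1 CPM, and 0 with equal cluster weight or thinned cells. At day 42 it became 2 with size factors, with totals without mitochondrial and ribosomal protein genes or with a pseudocount of 1 CPM, and 0 with equal cluster weight. In the columnar class at day 7 the count of 1 became 0 with the mean of CPM per cell or thinned cells and 2 with equal cluster weight or a pseudocount of 1 CPM. At day 42 the count of 0 became 1 with a pseudocount of 1 CPM. In fibroblasts at day 7 the count of 5 became 3 with thinned cells and 4, without Bmp5, with size factors or the mean of CPM per cell. At day 42 the count of 1 became 2 with the mean of CPM per cell and 4 with thinned cells. For day 42 against day 7, the columnar count of 1 (Id3) became 0 with the cell filter, size factors, the mean of CPM per cell, thinned cells or without the deepest 5% of cells, and the fibroblast count of 2 became 3 with a pseudocount of 1 CPM. Size factors shifted the median log2 ratio of all genes by 0.15 in the columnar class at day 7. They moved the split of its calls from 341 higher and 206 lower to 486 and 135, and that of the squamous class at day 42 from 234 and 201 to 311 and 137. Leaving out the deepest 5% of cells, or clusters 12 or 22, were alternatives chosen after seeing the data, and no other count moved under them. Equal cluster weight gave no separate value for fibroblasts, which are 1 cluster. Few counts limit Chrdl1, with 4 and 5 UMIs in the whole day 7 and day 42 libraries, which held 41 and 24 muscle-like cells.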
